A study of Mus musculus with 9 samples.

Results

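Cholesterol and fatty acid synthesis was described across 28 genes of mouse CD4+ T cells: 3 regulators, 16 enzymes of sterol synthesis, 1 sterol carrier and 8 enzymes of fatty acid synthesis, elongation and desaturation. The genes were chosen as known members of these pathways, by name, and all 28 had a row among the 23171 gene rows of the RNA-seq table. The series asked how CD4+ T cells that had met antigen on dendritic cells in vivo, and that differed in their level of Hopx, a small homeodomain protein, expressed their genes after renewed stimulation. Its 9 libraries came from antigen-specific CD4+ T cells of lymph nodes and spleen of C57BL6 mice. The labels give all 3 groups (naive, Hopx low and Hopx high, with 3 libraries each) the same treatment: injection of chimeric antibodies that carry antigen to dendritic cells, 5 days before sorting, then 12 h of restimulation with antigen-presenting cells in vitro and a second sort. The labels say neither how the Hopx level was read nor whether replicates came from separate mice, and p-values therefore measure the spread between these libraries, which may be technical.

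Both pathways start from cytosolic acetyl-CoA. Sterol synthesis runs through mevalonate, farnesyl diphosphate and squalene to lanosterol and cholesterol, and fatty acid synthesis through malonyl-CoA to palmitate, which is then elongated and desaturated. Transcription of both sets of enzymes is driven by the sterol regulatory element-binding proteins (SREBPs), membrane-bound factors that are released from the endoplasmic reticulum when sterols are scarce. T cells that leave rest and divide are known to raise both pathways, because a growing cell has to build membrane.

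Levels are given as bases per Mb: the bases of read coverage on a gene per megabase (Mb) of coverage in the library. Library totals ran from 63.3 Mb in naive replicate 1 to 800.1 Mb in Hopx high replicate 1, so that 3 reads of an assumed 100 bases were worth 4.74 bases per Mb in the first and 0.375 in the second. Naive replicates 1 and 2 differed from each other by about counting noise (median chi-square over its expectation 1.02, against 6.58 to 15.7 for the other pairs within a group) and were counted as 1 sample, which leaves naive with n = 2. They also held 40.0% and 29.1% of their coverage on 1 noncoding gene, Gas5, against 1.16% to 21.3% in the other 7 libraries. Hopx itself was at 0, 0 and 1.64 bases per Mb in naive, at 3.32, 6.90 and 3.29 in Hopx low, and at 8.95, 7.79 and 4.89 in Hopx high, so that 1 library labelled low was above 1 labelled high. The T cell markers Cd3d, Cd3e, Cd3g, Cd4, Cd5 and Cd28 summed to 501 to 1448 bases per Mb in naive, 1120 to 1804 in Hopx low and 853 to 1459 in Hopx high. In contrast, the 8 adipocyte markers, among them Adipoq, Fabp4 and Cidec at 0 in every library, summed to at most 1.10 bases per Mb, and the 3 hepatocyte markers, with Alb at 0 in every library, to at most 0.643.

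The promoters of 21 members were searched for elements known from sterol-regulated genes, and 4 are printed here. These 4 were picked because Hmgcs1 is the classic sterol-regulated promoter, Insig1 was ordered from naive down to Hopx high, Fasn is the most abundant enzyme, and Elovl6 had a wide spread between libraries. Each is 200 bases upstream of the start in RefSeq (GRCm38.p6), outside annotated exons: chr13:119690151-119690350 (plus strand) for Hmgcs1, chr5:28071163-28071362 (plus strand) for Insig1, chr11:120824548-120824747 (minus strand) for Fasn and chr3:129532155-129532354 (plus strand) for Elovl6. Capitals mark, on either strand, the sterol regulatory element TCACNCCAC, the CCAAT box bound by NF-Y, and the GC box GGGCGG bound by Sp1.
Hmgcs1: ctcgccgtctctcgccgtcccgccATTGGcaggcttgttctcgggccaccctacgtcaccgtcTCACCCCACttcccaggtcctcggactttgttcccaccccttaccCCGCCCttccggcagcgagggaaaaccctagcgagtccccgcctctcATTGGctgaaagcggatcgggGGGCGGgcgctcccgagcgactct
Insig1: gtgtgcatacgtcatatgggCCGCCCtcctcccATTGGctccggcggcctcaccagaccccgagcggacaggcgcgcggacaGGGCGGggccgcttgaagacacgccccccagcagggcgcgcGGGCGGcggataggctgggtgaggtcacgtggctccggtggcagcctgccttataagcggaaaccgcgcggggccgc
Fasn: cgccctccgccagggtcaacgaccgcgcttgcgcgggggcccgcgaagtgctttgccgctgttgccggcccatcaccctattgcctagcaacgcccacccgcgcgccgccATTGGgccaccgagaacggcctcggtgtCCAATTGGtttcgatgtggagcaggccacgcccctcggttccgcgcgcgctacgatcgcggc
Elovl6: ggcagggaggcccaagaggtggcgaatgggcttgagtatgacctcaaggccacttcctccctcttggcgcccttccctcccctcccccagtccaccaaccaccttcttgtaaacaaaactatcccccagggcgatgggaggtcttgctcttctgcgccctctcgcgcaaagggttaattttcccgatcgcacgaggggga
The Hmgcs1 stretch holds 1 sterol regulatory element, 2 CCAAT boxes and 2 GC boxes, the Insig1 stretch 1 CCAAT box and 3 GC boxes, the Fasn stretch 3 CCAAT boxes, and the Elovl6 stretch none of these letters. In Fasn, 2 of the 3 are overlapping matches on opposite strands and share letters.

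A promoter window, from 250 bases before to 50 bases after the start, was given for 21 of the 28 members. Sqle, Fdps, Fdft1, Stard4, Scd1, Scd2 and Fads1 had none. The exact TCACNCCAC was present in 1 of 21 members (4.76%, Hmgcs1) and in 1.44% of 27025 genes. CCAAT was present in 17 of 21 members (81.0%) against 41.1% of all genes, and GGGCGG likewise in 17 of 21 (81.0%) against 38.2%. The motifs were searched on both strands, and matches on opposite strands can overlap. A match describes these windows and is not a measured binding site.

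Per kilobase of transcript, Srebf2, Fasn, Srebf1 and Acly were the most abundant members. Averaged over the 9 libraries, Srebf2, which encodes the SREBP that mainly drives sterol genes, and Fasn, which encodes fatty acid synthase, both stood at 123 bases per Mb per kilobase. Srebf1, which encodes the SREBPs that mainly drive fatty acid genes, followed at 64.9, and Acly, which makes cytosolic acetyl-CoA from citrate, at 42.7. The sterol enzymes were lower, with Pmvk at 23.7 and Sqle at 19.0 at their head, while Insig1 stood at 20.5 and Acaca at 5.58. At the other end, Elovl6 stood at 2.07, Fads2 at 0.419 and Scd1 at 0.139. Scd2 ranked 24 of 28 in naive, 17 in Hopx low and 8 in Hopx high.

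**Figure D1:**
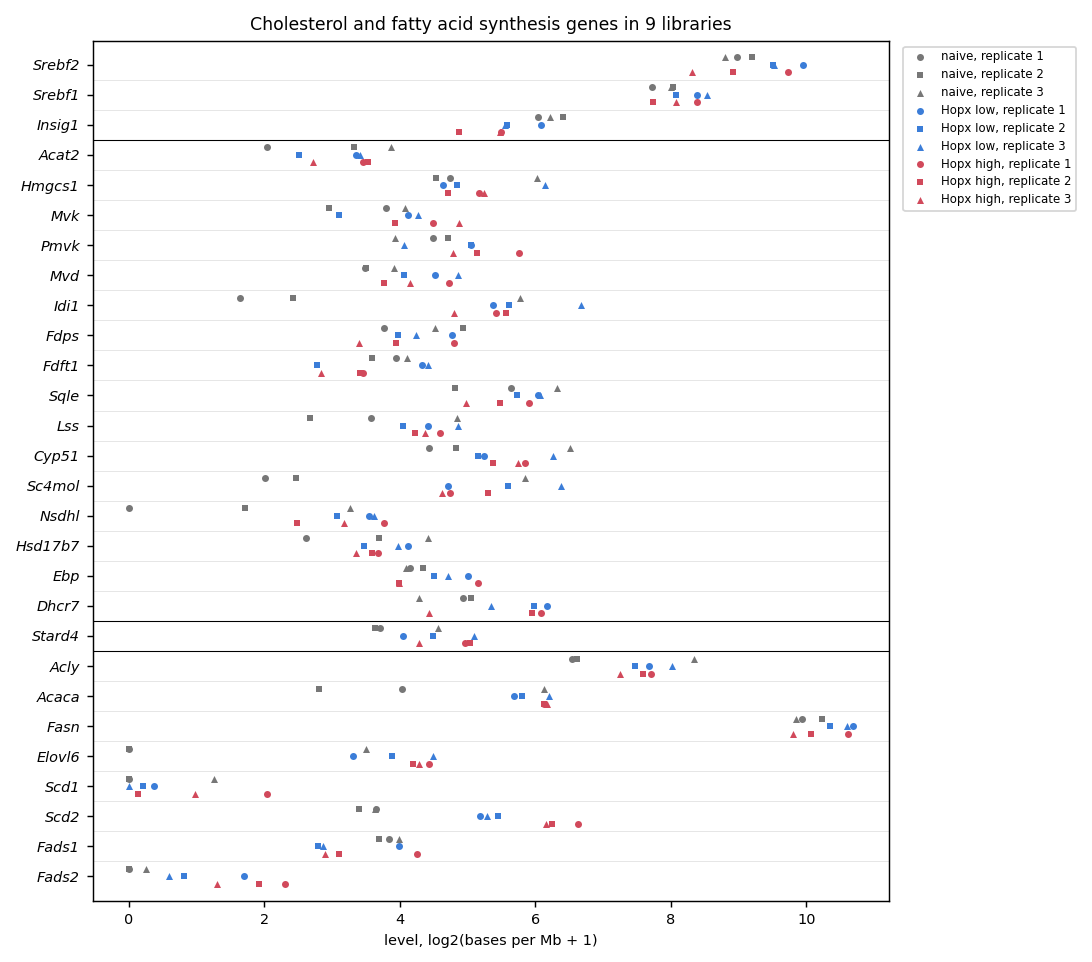
Level of each of the 28 genes in the 9 libraries, as log2(bases per Mb + 1), with colour for the group, shape for the replicate, and lines between regulators, sterol enzymes, the carrier Stard4 and fatty acid enzymes. The 3 groups separate without overlap for Scd2, while for Idi1, Sc4mol, Acaca and Elovl6 naive replicate 3 sits far above naive replicates 1 and 2.

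The clearest difference among the 28 genes was in Scd2, one of the mouse stearoyl-CoA desaturases, enzymes that place a double bond in saturated fatty acids and so make oleate and palmitoleate. Scd2 stood at 11.5, 9.56 and 11.4 bases per Mb in naive, at 35.2, 42.6 and 37.8 in Hopx low, and at 98.4, 75.0 and 70.0 in Hopx high. The lowest Hopx high library was above the highest Hopx low library, and every Hopx low library was above every naive library. The group means were 11.0 ± 0.615 (SD, n = 2), 38.6 ± 3.74 (n = 3) and 81.1 ± 15.2 (n = 3) bases per Mb. Per kilobase they were 1.98 in naive, 7.07 in Hopx low and 14.9 in Hopx high.

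Scd2 rose from naive to Hopx high by 2.77 ± 0.51 on the log2 scale (SE; 95% interval 1.69 to 3.84), with an adjusted p of 0.00325 in limma with Benjamini-Hochberg adjustment over the 10825 genes tested. It was the 1 member called in that comparison, where 3.3% of all genes were called higher and 0.499% lower. Leaving out each library in turn left the difference between 2.62 and 2.86 and the adjusted p between 0.000270 and 0.0301, and with naive replicate 3 as the lone naive library it was 2.71. The difference between Hopx low and naive was 1.72 ± 0.51 (0.64 to 2.80) and did not pass, with an adjusted p of 0.193 in limma. In that comparison 0 members were called, beside 0.296% of all genes called higher and 0.00924% lower. At an unadjusted p below 0.05 there were 3 members (Idi1, Elovl6 and Scd2), beside 8.52% of all genes, and in Hopx high against naive 4 (Acaca, Elovl6, Scd2 and Fads2), beside 15.5%. Between Hopx high and Hopx low it was 1.04 ± 0.46 (0.08 to 2.01), with an unadjusted p of 0.0354 and an adjusted p of 0.992 in limma. No member passed in that comparison, nor did any other gene: 0.0% of 10825 were called in either direction, while 4.5% had an unadjusted p below 0.05. In a fit of the 6 Hopx libraries alone, 53 genes (0.489%) were called higher and 16 (0.148%) lower, none of them a member, and Scd2 had an adjusted p of 0.289 in limma. In RNA from sorted cells in bulk, fewer cells that express a gene and less of its RNA per cell cannot be told apart.

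Scd2 was also the 1 member whose 8 samples were ordered naive below Hopx low below Hopx high without overlap, as was the case for 2.35% of all genes. Insig1 was the 1 member in the reverse order, as were 1.07% of all genes. In the authors' deposited table, which treats the 3 naive libraries as separate, the Scd2 ratios are 7.49 for Hopx high over naive, 3.56 for Hopx low over naive and 2.10 for Hopx high over Hopx low, with unadjusted p-values of 0.00131, 0.000250 and 0.00913. An unadjusted p below 0.05 is given there to 7.05%, 6.32% and 3.82% of all 23171 rows, and to 4, 5 and 1 of the 28 members.

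The gene lies at chr19:44293674-44306864 on the plus strand of GRCm38, beside its relatives Scd1, Scd3 and Scd4. These copies are alike enough for reads to be exchanged in places: the Scd2 transcript of 5455 bases shares with Scd1 an identical run of 147 bases and 48 windows of 100 bases. Scd1, the main desaturase of liver and adipose tissue, was at 0, 0 and 1.40 bases per Mb in naive, at 0.288, 0.158 and 0 in Hopx low, and at 3.11, 0.0989 and 0.964 in Hopx high. It missed the minimum mean of 1 base per Mb and was the 1 member not tested. Scd3 reached at most 0.462 bases per Mb and Scd4 at most 1.12. The summed coverage of the other 3 copies stayed below that of Scd2 in every library.

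**Figure D2:**
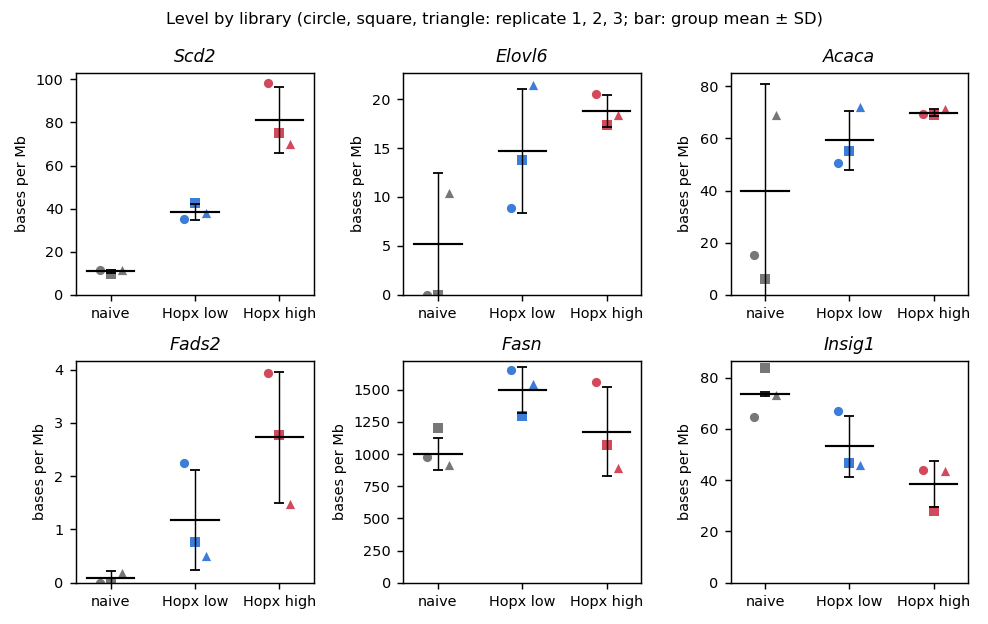
Level in bases per Mb of Scd2, Elovl6, Acaca, Fads2, Fasn and Insig1 in each library, with the group mean and SD (n = 2 in naive, where replicates 1 and 2 count as 1 sample, and n = 3 in both Hopx groups). Scd2 climbs from 11.0 in naive to 81.1 in Hopx high and Insig1 goes from 73.7 to 38.5, while the naive SDs of Elovl6 and Acaca exceed their means.

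The elongase Elovl6 had a wide spread in naive, and the desaturase Fads2 was at or near 0 there. Elovl6, which lengthens palmitate to stearate, the substrate of the desaturases, was at 0, 0 and 10.4 bases per Mb in naive, at 8.88, 13.8 and 21.5 in Hopx low, and at 20.5, 17.3 and 18.4 in Hopx high. Every Hopx high library was above every naive library, whereas Hopx low overlapped naive replicate 3. Elovl6 differed by 2.55 ± 0.82 (0.84 to 4.26) between Hopx high and naive and by 2.14 ± 0.82 (0.43 to 3.85) between Hopx low and naive, with adjusted p-values of 0.0937 and 0.403 in limma, both short of the threshold of 0.05. The zeros of naive replicates 1 and 2 stand for less than 4.74 and 3.47 bases per Mb, the worth of 3 reads there, so the sizes depend on the pseudocount: with 0.1 in place of 1 they were 4.20 and 3.77. With naive replicate 3 as the lone naive library they were 0.80 and 0.39.

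Fads2, the first desaturase in the making of long polyunsaturated fatty acids, was at 0, 0 and 0.190 bases per Mb in naive, at 2.24, 0.761 and 0.511 in Hopx low, and at 3.93, 2.78 and 1.47 in Hopx high. All naive values lay below the worth of 3 reads, and the highest Hopx value lay below that worth in naive replicate 1, so no fold is given and no separation can be read, and the adjusted p of 0.130 for Hopx high against naive in limma missed the threshold. Its neighbour on chromosome 19, Fads1, which acts later in the same route, showed no such order, with 11.9 to 14.9 bases per Mb in naive, 5.92 to 14.9 in Hopx low and 6.44 to 18.1 in Hopx high.

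None of the enzymes that make palmitate was called in any comparison. Fasn was at 974, 1205 and 916 bases per Mb in naive, at 1652, 1298 and 1545 in Hopx low, and at 1562, 1070 and 895 in Hopx high. All Hopx low libraries were above all naive libraries, though not after scaling by the median gene, and Hopx high reached from below the lowest naive library into the range of Hopx low. The log2 difference of Fasn was 0.58 (-0.42 to 1.58) between Hopx low and naive and -0.38 (-1.28 to 0.51) between Hopx high and Hopx low, with adjusted p-values of 0.774 and 0.992 in limma. Acly was at 92.4, 97.5 and 324 bases per Mb in naive against 176 to 258 in Hopx low and 152 to 208 in Hopx high. Acaca, the acetyl-CoA carboxylase that makes malonyl-CoA, was at 15.4, 6.01 and 68.8 in naive, at 50.7, 55 and 72.2 in Hopx low, and at 69.3, 68.8 and 71.4 in Hopx high. The 3 Hopx high values of Acaca were nearly equal, and naive replicate 3 matched them. Acaca differed by 1.31 ± 0.62 (0.01 to 2.61) between Hopx high and naive, with an adjusted p of 0.317 in limma.

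The regulators were well covered and did not follow Scd2. Srebf2 was at 505, 587 and 443 bases per Mb in naive, at 990, 725 and 737 in Hopx low, and at 848, 484 and 317 in Hopx high. All Hopx low libraries were above all naive libraries, again not after scaling by the median gene, and Hopx high ranged from below the lowest naive library to above the highest. The log2 difference of Srebf2 was 0.72 ± 0.49 between Hopx low and naive and -0.67 ± 0.44 between Hopx high and Hopx low, with adjusted p-values of 0.729 and 0.992 in limma. Srebf1 stayed between 210 and 369 bases per Mb in all 9 libraries. Its Hopx low libraries, at 269 to 369, were above the 2 naive samples, though not after scaling by the median gene. The exons of Srebf1 overlap Rai1 on the other strand, those of Hmgcs1, Idi1, Fdps, Lss, Cyp51 and Scd2 also overlap another annotated gene, and it is not known here whether reads were assigned by strand.

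Insig1, which holds the SREBP escort protein in the endoplasmic reticulum when sterols are plentiful and is itself an SREBP target, ran the other way from Scd2. It was at 64.8, 83.6 and 73.2 bases per Mb in naive, at 66.8, 46.9 and 45.9 in Hopx low, and at 44.0, 28.2 and 43.4 in Hopx high. Every Hopx high library was below every Hopx low library; Hopx low lay below naive only with naive replicates 1 and 2 averaged, since Hopx low replicate 1 was above naive replicate 1. The log2 difference between Hopx high and naive was -0.95 ± 0.50 (-2 to 0.11), with an adjusted p of 0.399 in limma, and that between Hopx high and Hopx low was -0.46 ± 0.45, with an adjusted p of 0.992. Scaled by the median gene of each library, Insig1 overlapped in both of these comparisons, at differences of -1.03 and -0.20.

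None of the 16 sterol enzymes was called by limma in any of the 3 comparisons, and at an unadjusted p below 0.05 there was 1, Idi1 in Hopx low against naive. In Hopx high against Hopx low, 4 of 16 had a positive log2 difference and their median was -0.27, beside a median of -0.25 over all genes. In Hopx high against naive, 10 of 16 were positive with a median of 0.29 (0.15 over all genes), and in Hopx low against naive 11 of 16 with a median of 0.28 (0.38 over all genes). The steps to mevalonate and on to the isoprenoids showed no common direction. Hmgcs1, which makes HMG-CoA, was at 25.6, 22.2 and 63.9 bases per Mb in naive, at 23.9, 27.7 and 69.8 in Hopx low, and at 35.0, 25.1 and 36.8 in Hopx high. Replicate 3 was the highest library of each group. Pmvk, the kinase of mevalonate 5-phosphate, had the reverse: it was at 21.6, 25.2 and 14.2 in naive, at 32.0, 32.0 and 15.7 in Hopx low, and at 52.9, 34.1 and 26.6 in Hopx high, with replicate 3 the lowest of each group. Its Hopx high libraries were all above naive, though not after scaling by the median gene. The Pmvk difference between Hopx high and naive was 0.96 ± 0.59 on the log2 scale, with an adjusted p of 0.490 in limma.

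Idi1, the isomerase that makes the isoprenoid building block dimethylallyl diphosphate, had a wide naive spread, at 2.12, 4.36 and 53.8 bases per Mb. It was at 40.4, 47.9 and 101 in Hopx low and at 41.9, 46.3 and 26.9 in Hopx high. Idi1 differed by 1.96 ± 0.79 (0.31 to 3.61) between Hopx low and naive, with an adjusted p of 0.448 in limma, and naive replicate 3 lay inside the range of Hopx low. The remaining enzymes of this stretch were low: Acat2 at 3.13 to 13.6, Mvk at 6.78 to 28.3, Mvd at 10.2 to 28.1 and Fdps, which makes farnesyl diphosphate, at 9.51 to 29.4 bases per Mb over the 9 libraries.

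Among the enzymes from squalene to cholesterol, Sc4mol (now Msmo1), the C4-methyl oxidase, had the pattern of Idi1, with 3.02, 4.52 and 56.5 bases per Mb in naive, 25.2, 47.3 and 82.1 in Hopx low, and 25.8, 38.3 and 23.7 in Hopx high. Its partner in removing the C4 methyl groups, Nsdhl, was at 0, 2.29 and 8.56 in naive against 7.42 to 11.2 in Hopx low and 4.59 to 12.6 in Hopx high. Cyp51, the lanosterol 14-alpha-demethylase, was at 20.6, 27.3 and 90.3 in naive, at 36.7, 34.5 and 75.6 in Hopx low, and at 56.5, 40.5 and 52.8 in Hopx high. The naive range of Cyp51 covers all 6 Hopx libraries and that of Sc4mol 5 of 6. Dhcr7, which makes cholesterol from 7-dehydrocholesterol, did not overlap between naive and Hopx low, but overlapped after scaling by the median gene: it was at 29.6, 32.1 and 18.6 in naive, at 71.3, 62.0 and 39.7 in Hopx low, and at 66.8, 60.6 and 20.5 in Hopx high. The Dhcr7 difference between Hopx low and naive was 1.19 ± 0.59 (-0.05 to 2.43), with an adjusted p of 0.604 in limma. Sqle, the squalene epoxidase, ranged from 27.2 to 78.7 bases per Mb over the 9 libraries, Lss from 5.41 to 27.9, Hsd17b7 from 5.12 to 20.4 and Ebp from 14.9 to 34.7. Fdft1, the squalene synthase, was at 14.4, 11.0 and 16.2 in naive and at 9.94, 9.66 and 6.11 in Hopx high, and did not overlap between these groups, with an adjusted p of 0.707 in limma. Its exons overlap Ctsb on the other strand. Stard4, which carries cholesterol between membranes, ranged from 11.4 to 22.7 in naive, 15.5 to 33.2 in Hopx low and 18.4 to 31.7 in Hopx high.

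**Figure D3:**
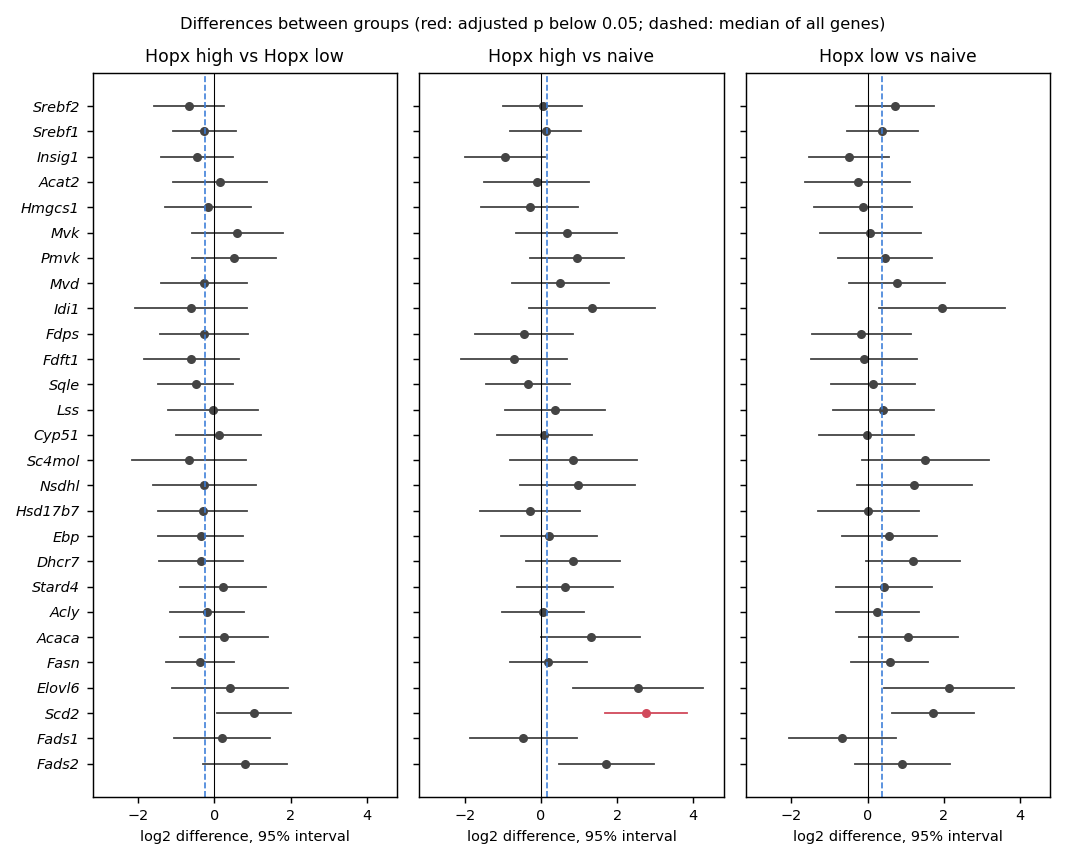
Log2 difference with its 95% interval for the 27 genes tested, in Hopx high against Hopx low, Hopx high against naive and Hopx low against naive, with the median of all 10825 genes as a dashed line. One interval belongs to a gene with an adjusted p below 0.05, that of Scd2 in Hopx high against naive (2.77), and most intervals include both 0 and the dashed line.

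The median of the 27 tested genes was close to that of the whole table. Their median log2 difference was -0.26 in Hopx high against Hopx low (-0.25 over all genes). It was 0.21 in Hopx high against naive (0.15) and 0.43 in Hopx low against naive (0.38). The 7 tested fatty acid genes lay higher, with medians of 0.25, 1.31 and 0.91 in the same order. Of these 7, 5, 6 and 6 were positive. Their medians against naive are the values of Acaca, which naive replicate 3 matched in Hopx high, and of Fads2, whose naive values lay below the worth of 3 reads. Whether these 7 differ from the whole table was not tested. Scaling each library by its median gene brought the median of all genes to 0.00, 0.083 and 0.077 and that of the members to 0.00, 0.12 and 0.089, and the members with a positive difference went from 10, 19 and 20 of 27 to 14, 17 and 16. Without overlap, 4 members were higher in Hopx high than in naive (Pmvk, Elovl6, Scd2 and Fads2) and 2 lower (Insig1 and Fdft1), beside 15.3% and 10.1% of all genes. In Hopx low against naive, 8 were higher (Srebf2, Srebf1, Mvd, Ebp, Dhcr7, Fasn, Scd2 and Fads2) and 1 lower (Insig1), beside 19.1% and 3.81% of all genes. Fads2 enters both counts by its values alone. All its naive values lay below the worth of 3 reads, so no separation can be read for it. Between Hopx high and Hopx low, 1 was higher (Scd2) and 1 lower (Insig1), beside 4.49% and 10.1%. These counts depend on the scaling. After scaling by the median gene they were 5 higher and 3 lower in Hopx high against naive (17.4% and 15.2% of all genes), 3 and 3 in Hopx low against naive (12.7% and 10.3%), and 4 and 1 in Hopx high against Hopx low (9.64% and 8.42%). With Gas5 left out of the totals they were 5 and 3, 4 and 2, and 1 and 3. The counts over all 10825 genes were then 1505 and 1702, 1700 and 820, and 578 and 1349. Scd2 was higher without overlap in all 3 comparisons also after scaling by the median gene. The comparisons with naive share the naive libraries, and both comparisons with Hopx high share those.

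Wide variation in the pathway lay inside the groups, and in naive and Hopx low it went with base composition. In naive, replicate 3 was above the mean of replicates 1 and 2 by a log2 difference of 3.74 for Idi1, 3.61 for Sc4mol, 3.51 for Elovl6, 2.71 for Acaca and 2.40 for Nsdhl. For all of these but Acaca, at least 1 value of naive replicates 1 and 2 lay below the worth of 3 reads. Those sizes depend on the pseudocount. In contrast, Srebf2 differed by -0.30, Fasn by -0.24, Pmvk by -0.68 and Dhcr7 by -0.70. The 5 genes with a large difference, the highest of the members, have coding transcripts of 41.9% to 49.1% GC. The other 4, the lowest of the members, have 52.8% to 57.9% GC. The same slope ran through the whole table: the median difference was 2.08 over 2283 genes under 45% GC, 1.54 over 2501 genes between 45 and 50%, 0.70 over 2504 genes between 50 and 55%, and 0.00 over 2511 genes above 55%. Members in these bands had medians of 1.38, 1.53, 0.24 and -0.06 (n = 5, 8, 8 and 6). Single members departed from this: Acly and Lss, at 52.1% and 52.2% GC, differed by 1.76 and 1.72, and Insig1, at 48.2% GC, by -0.01. Across genes, which share these 3 libraries and are not independent replicates, Pearson's r between the difference and GC content was -0.54 over 9799 genes and -0.68 over the 27 members.

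Hopx low replicate 3 had the same slope in a milder form. Its difference from Hopx low replicates 1 and 2 was 1.41 for Hmgcs1, 1.23 for Sc4mol, 1.19 for Idi1 and 1.06 for Cyp51, but -0.98 for Pmvk and -0.73 for Dhcr7. Across genes r with GC content was -0.40 over all genes and -0.51 over the members. Hopx high replicate 3 did not share it: r was 0.11 over all genes and -0.12 over the members, the median of all genes was -0.49, and the members furthest below were Dhcr7 at -1.59 and Srebf2 at -1.01. For the differences between the groups themselves, r over all genes was 0.11 in Hopx high against Hopx low, -0.01 in Hopx high against naive and -0.09 in Hopx low against naive.

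**Figure D4:**
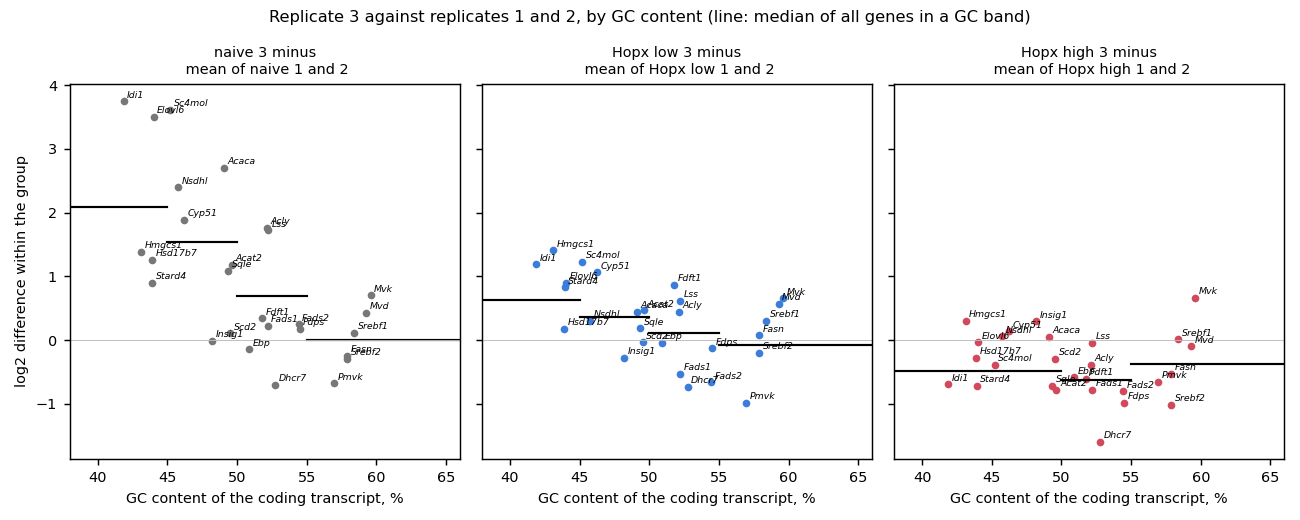
Log2 difference between replicate 3 and the mean of replicates 1 and 2 within each group, for the 27 tested genes, against the GC content of the gene's longest coding transcript in percent; black lines are medians of all genes in 4 bands of GC content. In naive the points fall from 3.74 for Idi1 at 41.9% GC to near 0 above 55% GC, in Hopx low less steeply, and in Hopx high with no such fall. The naive points of Idi1, Sc4mol, Elovl6 and Nsdhl depend on the pseudocount, since naive replicate 1 lay below the worth of 3 reads.

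Scd2 did not follow this slope in naive. Its transcript has 49.5% GC, in the band where naive replicate 3 exceeded replicates 1 and 2 by a median of 1.54, but Scd2 itself differed by 0.11 there. Scd2 was not alone among the members: Insig1, in the same band at 48.2% GC, differed by -0.01, and Dhcr7, at 52.8% GC, by -0.70. Relative to the median gene of its band, Scd2 was 2.60 higher in Hopx high than in naive, 1.34 higher in Hopx low than in naive and 1.28 higher in Hopx high than in Hopx low, on the log2 scale. For Elovl6 the same values were 2.30, 1.63 and 0.67, and for Acaca 1.14, 0.68 and 0.49. For Idi1 they were 1.09, 1.44 and -0.36, and for Sc4mol 0.67, 1.13 and -0.43. In Elovl6, Idi1 and Sc4mol, naive replicate 1 lay below the worth of 3 reads, so their values against naive depend on the pseudocount.

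The number of calls against naive depended on 1 library. Without naive replicate 3, naive is the mean of replicates 1 and 2 alone, assumed to vary like the other groups, and 6 members were called higher in Hopx high: Idi1, Sc4mol, Nsdhl, Acaca, Elovl6 and Scd2. Acaca was 2.60 higher on the log2 scale; for Idi1, Sc4mol, Nsdhl and Elovl6 at least 1 of the 2 remaining naive values lay below the worth of 3 reads, so no size is given. The same 6 were called higher in Hopx low, Scd2 among them at 1.77 with an adjusted p of 0.0150 in limma. Of all genes, 22.8% and 24.9% were then called higher in these comparisons. With naive replicate 3 as the lone naive library, the members' median was -0.11 in Hopx high and -0.20 in Hopx low, beside -0.44 and -0.15 over all genes, and Idi1 and Sc4mol differed by -0.51 and -0.96 in Hopx high. The part of base composition or RNA quality in the comparisons with naive was not tested.

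Among markers of other cells, 1 gene passed the test. The 4 B cell markers summed to 13.4 to 34.7 bases per Mb in naive, 18.6 to 22.9 in Hopx low and 2.41 to 8.45 in Hopx high. Of the 2 tested, Cd79a was lower in Hopx high than in naive by a log2 difference of -3.03, with an adjusted p of 0.00771 in limma, while Cd79b was at 0 in Hopx high replicates 2 and 3 and in naive replicates 1 and 2. The 10 markers of dendritic cells and monocytes summed to 23.2 to 41.5 in naive, 25.9 to 75.9 in Hopx low and 17.8 to 58.2 in Hopx high, with Itgax at 0 in 8 of 9 libraries. None of the 6 tested was called by limma, and 1 had an unadjusted p below 0.05, Tyrobp in Hopx low against naive. Their part in the member values was not tested.

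Genes of the same pathways outside the 28 gave no call in limma, with at most 3 of a list at an unadjusted p below 0.05 in any comparison. Of 12 listed sterol genes, 11 were tested and none was called in any comparison, with medians of -0.53, -0.39 and 0.35 in Hopx high against Hopx low, Hopx high against naive and Hopx low against naive. Scap, the SREBP escort protein, was at 181 to 288 bases per Mb in naive, 186 to 264 in Hopx low and 119 to 211 in Hopx high.

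For uptake, transport, storage and efflux of cholesterol, 11 of 14 genes were tested and none was called, with medians of -0.68, -0.35 and -0.05. Nr1h2, an oxysterol receptor, was at 276 to 408 bases per Mb in naive and 209 to 357 in Hopx high. For fatty acid and lipid synthesis outside the members, 15 of 20 genes were tested and none was called, with medians of -0.31, 0.62 and 0.63. Slc25a1, the mitochondrial carrier that exports citrate for Acly, was at 79.1, 92.8 and 51.0 in naive, at 230, 123 and 111 in Hopx low, and at 280, 121 and 182 in Hopx high. Both Hopx groups of Slc25a1 lay above naive without overlap, though both overlapped naive after scaling by the median gene. The difference between Hopx high and naive was 1.45 ± 0.52, with an adjusted p of 0.143 in limma. For fatty acid oxidation, the opposing pathway, 9 of 10 genes were tested and none was called. In Hopx high against Hopx low, 1 of these 9 was positive and the median was -0.71, beside -0.25 over all genes. Acadvl, the very long chain acyl-CoA dehydrogenase, was at 126, 117 and 157 in Hopx low and at 78.3, 82.8 and 23.1 in Hopx high, a difference of -1.29 ± 0.50 with an adjusted p of 0.912 in limma.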

How the data were processed

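RNA was extracted with Trizol and the mirVana kit, depleted of ribosomal RNA and made into Ion Total RNA libraries, per the labels' protocols. The authors' table holds a signal per gene and library. Its deposited values are whole multiples of 1 step per library: 1 more than the gene's covered bases, relative to the library's total and rescaled to the average total of the 9 libraries. The submitters' processing notes name bedtools and mm10. Not given in the sources used here are the aligner, the annotation and the strand setting. The authors also deposited a ratio of group means and an unadjusted p-value per gene for each pair of groups.

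Here the covered bases were recovered (100% of values whole within 1e-06) and scaled to bases per Mb. Values are not counts, so log2(bases per Mb + 1) was fitted with limma 3.58.1 (R 4.3.3) with a variance trend, on the 3 groups together, for genes that averaged 1 base per Mb or more over 8 samples. Genes were called at a Benjamini-Hochberg adjusted p below 0.05. The fit was run on simulated data with independent noise and no differences in depth, Gas5 share or base composition. That run cannot show how the fit performs on these libraries. Totals of 63.3 to 800.1 Mb set the precision. The worth of 3 reads covers counting error only, and the intervals cover the spread between libraries. GC content is that of the longest coding transcript in GENCODE vM21 (GRCm38), which gave a value for 9799 of 10825 genes (90.5%). Promoter sequences are from RefSeq.

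Hopx low and Hopx high libraries of the same number deviated together from their group means (r = 0.41, 0.38 and 0.16 over 8945 genes). The numbers were taken as pairs only in the alternatives with a replicate block. The fit reported holds the group alone and pairs no libraries, naive, with 2 samples, included. Alternatives were other scalings, filters, pseudocounts, samples in the fit, the replicate block and each library left out. The members and gene lists were chosen with earlier results of these data known. All members are named, and of other lists every called gene, or up to 2 with the highest mean; 1 such gene is not reported here.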

Additional observations from a re-analysis of the deposited data

How the results depend on the processing

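The difference of Scd2 between Hopx high and naive, the 1 call of the fit reported, was positive under each alternative run, at 2.59 to 2.87. Members called higher in Hopx high against naive numbered 1 in the fit reported, beside 357 of all 10825 genes. With quantile normalization they numbered 2, beside 458 genes (Elovl6, adjusted p of 0.0422 in limma, joined Scd2). With naive replicates 1 and 2 as separate samples they numbered 3, beside 717 of 10764 genes (Elovl6 and Fads2 joined, both with naive values at 0). When each library but naive replicate 3 was left out they numbered 1, beside 137 to 345 genes. In Hopx low against naive they numbered 0 to 6 when each library was left out, with 6 in both cases without naive replicate 3. In Hopx high against Hopx low, 1 member was called after scaling by the median gene with only these 2 groups fitted. This alternative was chosen after seeing the data. Scd2 stood there at 1.30 with an adjusted p of 0.0483 in limma, against 0.0483 to 1.00 over its 23 alternatives. In that fit 71 of 10846 genes were called higher and 7 lower.

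The members' median log2 difference in Hopx high against naive ranged from -0.01 to 0.62 over the fits that leave out a library, and was -0.11 without naive replicates 1 and 2 (also chosen after seeing the data). With Gas5 left out of the totals it was 0.028 in Hopx high and 0.24 in Hopx low against naive, beside -0.0099 and 0.22 over all genes. In Hopx low against naive the median ranged from 0.29 to 0.66 over the fits that leave out a library, and was 0.089 after scaling by the median gene, 0.079 with that scaling and only these groups fitted, 0.067 with quantile normalization and -0.20 without naive replicates 1 and 2. The number of genes called in Hopx high against Hopx low went from 0 to 53 higher and 16 lower when only these groups were fitted; the cause was not tested.

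With the replicate number as a block in the fit of Hopx high and Hopx low, where it pairs the libraries, 60 genes were called higher and 15 lower, none of them a member, and Scd2 had an adjusted p of 0.197 in limma. With the block in the fit of Hopx high and naive, which share 2 numbers, 0 members were called higher and Scd2 stood at 2.81 with an adjusted p of 1.00 in limma; that fit called 36 genes higher and 5 lower, against 294 and 30 without the block. Depth limits the low members: Fads2 and Scd1 lay below the worth of 3 reads in several libraries.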
